A study of Arabidopsis thaliana with 21 samples.

Results

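H2AK121ub, histone H2A ubiquitinated on a lysine of its C-terminal tail, was compared between the clf28/swn7 double mutant (clfswn) of Arabidopsis thaliana and wild type (WT) of the same Col-0 ecotype. The comparison rests on 4 of the 21 samples of the series, namely 2 clfswn libraries and the 2 WT libraries that the labels name as their controls. Whole seedlings were collected at 7 days after germination (7 DAG), and chromatin was immunoprecipitated with an antibody against H2A ubiquitin, with 2 independent biological replicates. Both genotypes grew on MS agar in long days, without any other treatment, and clfswn carries the clf28 and swn7 alleles in every cell. The deposited tables list regions called in either genotype with the raw reads of clfswn and WT in each region. Only nuclear chromosomes were used, each region common to both genotypes was taken once with its WT limits, and regions of the replicate tables were joined when each was the other's best overlap. This gave 24038 regions out of 26833 in the replicate 1 table and 27688 in the replicate 2 table.

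Polycomb repressive complex 2 (PRC2) trimethylates histone H3 at lysine 27 (H3K27me3) and keeps developmental genes silent. CURLY LEAF (CLF) and SWINGER (SWN) are its catalytic subunits in the plant body, and a relative, MEDEA (MEA), acts in the female gametophyte and the seed. H2AK121ub is placed by the ring finger proteins of PRC1 (AtBMI1 and AtRING1). Plants without CLF and SWN develop into disorganized, callus-like tissue, and the comparison addresses where H2AK121ub is lost, kept or gained when PRC2 activity is missing.

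The sequences printed here are the central stretches of H2AK121ub regions in genes to which the results return, shown so that regions which rose, fell or stayed can be compared as DNA. Each is read from the TAIR10.1 assembly of RefSeq on the strand of its gene, 5′ to 3′. Capitals mark matches to the telobox (AAACCCTA or its reverse complement TAGGGTTT), which is bound by factors that recruit PRC2, and to GAGAGA, bound by GAGA factors. Neither these motifs nor the RY element CATGCA nor the evening element AAAATATC was found in the ALE2, OFP5 and AGO3 stretches. STM (meristem homeobox gene, chr1:23061006-23061305) and TT16 (seed coat MADS-box gene, chr5:7836444-7836730) gained H2AK121ub in clfswn. ALE2 (epidermal receptor kinase, chr2:8756527-8756826) and OFP5 (ovate family repressor, chr4:10337503-10337802) lost it. AGO3 (argonaute protein, chr1:11188555-11188854) stayed within 20% of WT.
STM: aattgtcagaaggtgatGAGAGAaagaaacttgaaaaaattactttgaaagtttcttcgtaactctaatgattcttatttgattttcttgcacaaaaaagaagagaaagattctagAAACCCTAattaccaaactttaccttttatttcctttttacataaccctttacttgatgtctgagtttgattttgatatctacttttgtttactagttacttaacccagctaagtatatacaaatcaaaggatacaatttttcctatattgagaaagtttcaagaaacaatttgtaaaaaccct
TT16: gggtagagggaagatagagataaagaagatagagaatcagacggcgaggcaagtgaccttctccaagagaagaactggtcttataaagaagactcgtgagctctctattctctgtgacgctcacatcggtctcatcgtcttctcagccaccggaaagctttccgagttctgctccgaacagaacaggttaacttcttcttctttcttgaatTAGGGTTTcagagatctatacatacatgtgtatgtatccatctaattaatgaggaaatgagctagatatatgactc
ALE2: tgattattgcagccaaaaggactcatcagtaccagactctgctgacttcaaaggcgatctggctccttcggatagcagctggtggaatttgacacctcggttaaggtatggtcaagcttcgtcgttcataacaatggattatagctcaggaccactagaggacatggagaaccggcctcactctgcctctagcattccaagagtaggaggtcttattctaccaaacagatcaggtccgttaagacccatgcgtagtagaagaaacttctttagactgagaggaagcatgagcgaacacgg
OFP5: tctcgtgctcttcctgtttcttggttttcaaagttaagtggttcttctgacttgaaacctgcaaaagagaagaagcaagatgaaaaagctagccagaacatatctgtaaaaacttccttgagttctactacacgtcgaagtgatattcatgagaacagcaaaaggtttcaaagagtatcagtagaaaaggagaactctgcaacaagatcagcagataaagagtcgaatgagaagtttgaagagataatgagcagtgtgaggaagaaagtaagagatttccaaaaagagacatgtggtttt
AGO3: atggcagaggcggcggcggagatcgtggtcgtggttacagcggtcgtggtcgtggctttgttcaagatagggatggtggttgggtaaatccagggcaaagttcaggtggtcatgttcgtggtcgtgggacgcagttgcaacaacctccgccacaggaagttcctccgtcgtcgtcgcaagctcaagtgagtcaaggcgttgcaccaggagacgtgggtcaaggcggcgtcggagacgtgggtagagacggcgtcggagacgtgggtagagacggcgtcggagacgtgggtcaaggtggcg

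The telobox was present in the central 300 bases of 7.73% of increased regions, 4.58% of reduced regions and 4.36% of kept regions, against 5.06% of all 24038 regions. The RY element, bound by the B3 proteins VAL1 and VAL2, was least frequent in increased regions, with 13.0% of increased, 18.6% of reduced and 17.1% of kept regions against 16.5% of all. GAGAGA, the G-box CACGTG, the evening element and the I-box GATAAG, all read on both strands, differed less between these classes. Within WT H3K27me3, however, GAGAGA lay in 32.1% of increased and 23.8% of reduced regions and the G-box in 5.93% and 9.78%. Over all regions, GAGAGA lay in 35.2% of increased and 33.5% of reduced regions. Median GC content was 42.3% in increased regions against 40.7% in all, and the part of base composition in the motif shares was not tested.

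Regions with less and regions with more H2AK121ub than WT were both found in clfswn, along with regions near the WT level. The median log2 ratio of clfswn to WT over the 24038 regions, which the rescaling of each pair on its own common regions places near 0, was 0.05 in replicate 1 and 0.08 in replicate 2 (mean 0.06, SD 0.018, n = 2 pairs). A region was called reduced when the edgeR quasi-likelihood test gave a Benjamini-Hochberg adjusted p below 0.05 and the fitted level was under 80% of WT, and increased when the level was over 120%. By this rule 3759 regions (15.6%) were reduced and 5422 (22.6%) were increased, while 7681 (32.0%) lay between 80% and 120% of WT in both pairs and are called kept. The losses were mostly partial, with 2615 of the reduced regions at 60% to 80% of WT, 981 at 40% to 60%, 148 at 20% to 40% and 15 under 20%. Of the increased regions, 2985 lay at 120% to 150%, 2044 at 150% to 200%, 384 at 200% to 400% and 9 above. In whole seedlings, a change in the number of cells that carry the mark and a change in the mark per cell cannot be told apart.

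The replicate pairs placed 18920 regions (78.7%) on the same side of WT, and 9167 of the 9181 called regions. Across regions, which share libraries and are not independent, the pair ratios had a Pearson correlation of 0.78, and the median absolute difference between pairs was 0.19 on the log2 scale. Increased regions made up 59.1% of calls, but this split follows from where the ratios are centred, since a change shared by all regions would be removed by the rescaling. With the centre raised by 0.2 the share was 83.8%, and with the centre lowered by 0.2 it was 26.9%. DESeq2, which differs from edgeR in both scaling and test, gave 44.4%. The replicate block pairs each clfswn library with its WT control, and without this block 506 regions were reduced and 478 increased. A joined region was counted in the limits of each replicate table, which can differ, as at AP1 (25985901 to 25986269 and 25985414 to 25986328). Without the block such differences add to the spread, so the fall in calls does not measure the pairing alone. Leaving out any of the 4 libraries, also without the block and with the same mix of limits, lowered both counts further. Without clfswn replicate 1 or clfswn replicate 2 both counts were 0, without WT replicate 1 they were 145 and 143, and without WT replicate 2 they were 180 and 124.

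The clfswn libraries held 6599071 and 6884454 reads inside their own called regions and the WT libraries 7151170 and 7490200, and a median region held 178 reads on average. Regions called numbered 23502 and 25011 in clfswn and 21987 and 22314 in WT. The mutant label was checked against H3K27me3, measured in other libraries of the series. Of 9370 regions with H3K27me3 in both WT libraries, 58 were also called in both clfswn libraries and 158 in either.

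Regions called only in the mutant or only in WT held the larger differences. The 2506 regions called only in clfswn in both tables had medians of 0.51 and 0.54, and 55.8% of them were increased. The 1215 regions called only in WT had medians of −0.76 and −0.68, and 74.5% were reduced. The 16992 regions called in both genotypes lay at 0.04 and 0.06. Being called depends on the same reads, so these medians describe how the deposited classes differ in size and are no separate evidence. The same limit holds for every gene named below whose region was called in clfswn alone or in WT alone.

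The WT H3K27me3 state of a region, read from libraries not used for the ratio, separated the changes. Among 9995 H2AK121ub regions that overlapped WT H3K27me3, the medians were 0.21 and 0.21, with 3353 increased (33.5%) and 685 reduced (6.85%). Among 14043 regions without H3K27me3, the medians were −0.07 and −0.03, with 2069 increased (14.7%) and 3074 reduced (21.9%). The difference between the classes was 0.28 in replicate 1 and 0.24 in replicate 2 (mean 0.26, SD 0.024, n = 2 pairs). It exceeded the spread between pairs, although 2 pairs cannot give a two-sided sign-flip p below 0.5. Because both classes are read in the same libraries, this difference of medians does not depend on the centre of the ratios, but the shares do. With the centre lowered by 0.2, 16.9% of regions with H3K27me3 were increased and 15.4% reduced, against 6.01% and 38.0% without it. With the centre raised, the shares were 57.4% and 2.89% against 30.2% and 11.7%. The fit without the replicate block gave 3.52% and 1.47% against 0.897% and 2.56%. Kept regions made up 31.6% of the regions with and 32.2% of those without H3K27me3. Within classes of equal GC content the difference ran from 0.23 to 0.33, within classes of read density from 0.10 to 0.49, and within classes of region length from 0.16 to 0.38.

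**Figure D1:**
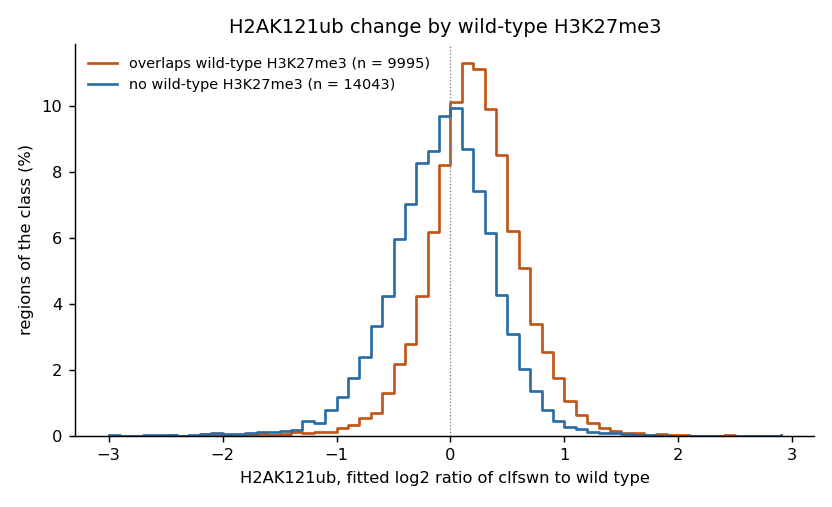
Share of regions (%, vertical axis) by fitted log2 ratio of clfswn to WT (horizontal axis, bins of 0.1, with values beyond 3 or −3 placed in the end bins) for 9995 regions that overlap WT H3K27me3 and 14043 that do not. The curve of regions with H3K27me3 lies to the right, 33.5% of them increased against 14.7%.

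The gain was graded by the length of the WT H3K27me3 domain. Regions in the shortest domains, 246 to 934 bp, had medians of 0.08 and 0.09, and 21.2% were increased. In domains of 1716 to 2727 bp the medians were 0.19 and 0.20, with 31.9% increased. In the longest domains, 4665 to 21980 bp, the medians were 0.40 and 0.40, with 50.7% increased and 3.35% reduced. The longest class exceeded the shortest by 0.32 (SD 0.005, n = 2 pairs), and by 0.29 to 0.33 within classes of GC content. Median read density of the regions fell from 350 reads per kb in the shortest class to 285 in the longest. The part of read density in the gradient was not tested. Long domains belonged to genes such as AG (10265 bp), STM (11783 bp), STK (13235 bp) and AP1 (13961 bp), all increased in clfswn. The regions of these genes were called in clfswn alone in both tables. They thus entered the comparison through their clfswn reads and are examples, not separate evidence of the gain. The length classes also hold regions called in clfswn alone, which raises their medians and increased shares. The gradient was not repeated over regions called in WT. Several regions can share a domain, as 9995 regions lay in 7056 domains, up to 11 in the same domain. By WT H3K27me3 read density, the mean of the pair medians went from 0.11 in the lowest class to 0.27 in the highest.

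**Figure D2:**
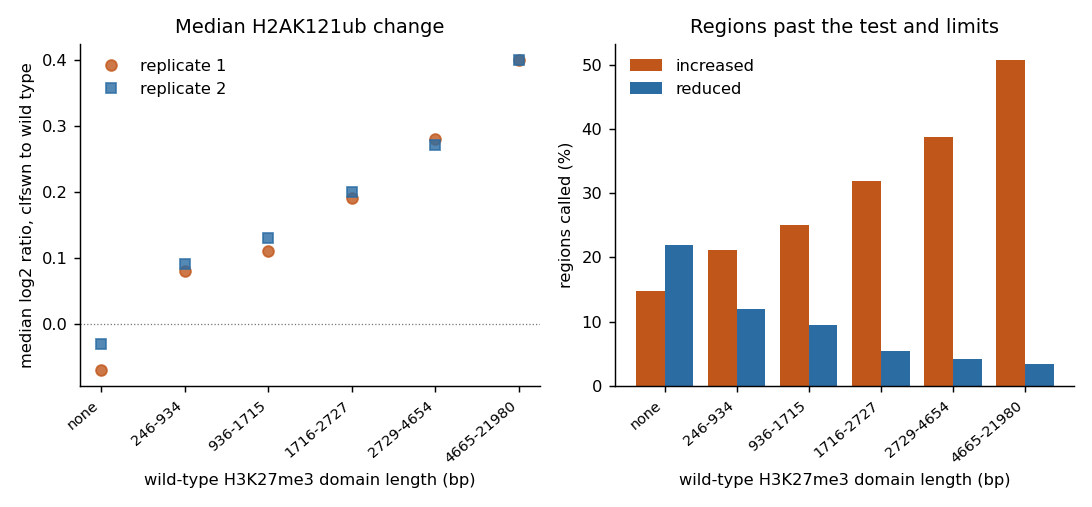
Left, median log2 ratio of clfswn to WT in each replicate pair (vertical axis) for regions without WT H3K27me3 and for 5 classes of WT H3K27me3 domain length in bp (horizontal axis). Right, regions called increased or reduced (%) in the same classes, from 14.7% increased and 21.9% reduced without H3K27me3 to 50.7% and 3.35% in the longest domains. All classes include regions that the deposited tables call in clfswn alone.

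Changes also differed by position in the gene. The 4037 regions over a gene start had medians of 0.09 and 0.09, with 28.3% increased and 13.1% reduced. The 14626 regions in gene bodies had medians of 0.07 and 0.08, with 23.9% increased and 16.1% reduced. The 2677 regions upstream of genes, within 2000 bp, had medians of −0.09 and 0.01, with 10.3% increased and 16.7% reduced. The difference between gene starts and upstream regions was 0.18 and 0.09 in the pairs (mean 0.13, SD 0.063). With H3K27me3 the increased share was 35.6% at gene starts, 38.3% in gene bodies and 16.3% upstream, and without it 17.6%, 16.3% and 5.63%.

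Regions common to both genotypes were longer in clfswn where WT carried H3K27me3. Their median length was 764 bp in clfswn against 674 bp in WT in replicate 1, and 782 bp against 690 bp in replicate 2, and 63.6% and 61.9% of them were longer in the mutant. Without H3K27me3 the median was 557 bp against 567 bp and 548 bp against 571 bp, with 46.2% and 42.8% longer in clfswn. The mean median ratio of lengths was 1.06 (SD 0.0071) with and 0.974 (SD 0.0092) without H3K27me3. Called limits follow depth and enrichment, whose part in the lengths was not tested.

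No matched H2AK121ub region was assigned to CLF, which is mutated in clfswn. SWN, the other mutated gene, had a region in its upstream sequence (chromosome 4, 885786 to 886346), called in WT alone in both tables. It held 65 and 70 reads in clfswn against 150 and 111 in WT, or 60.5% of WT (log2 −0.72, SD 0.37, edgeR adjusted p = 0.0035). SWN was not called without the replicate block or by DESeq2. MEA, the methyltransferase gene of the gametophyte and seed, held 160 and 116 reads against 150 and 147, and FIS2, its partner in the seed complex, held 82 and 90 against 77 and 112. Neither was called, with adjusted p of 0.64 and 0.74 by edgeR. The other PRC2 genes listed (FIE, VRN2, EMF2 and MSI1) had no matched region.

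Among the 13 genes of PRC1 and its partners, 10 had a region, of which 3 were reduced and 1 increased. Among all genes 16.9% were reduced and 22.9% increased. Of the 10 genes, 1 was reduced without the replicate block, 1 with the centre raised by 0.2 and 2 by DESeq2, with 1 increased in each. VAL1, a B3 repressor that binds RY elements, had 382 and 370 reads in clfswn against 688 and 731 in WT (61.6% of WT, edgeR adjusted p = 2.4e-06). RING1A, which encodes a ring finger subunit, had 453 and 434 against 742 and 715 (70.8%, adjusted p = 0.00014). VRN1, a DNA-binding protein of vernalization, was reduced to 73.0% upstream of the gene (147 and 204 against 284 and 272 reads, adjusted p = 0.011). RING1B at 92.4%, LHP1 at 101%, VAL2 at 93.4%, ULT2 at 103% and DRIP1, which is AtBMI1B, at 87.4% were not called. ULT1 stood at 81.9%, past the test (edgeR adjusted p = 0.0054) but not past the 80% limit.

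The highest ratio of any named gene was at DRIP2, which is AtBMI1A and encodes a PRC1 ring finger protein. A region of 1099 bp over its coding exons and introns (chromosome 2, 13028402 to 13029500) held 2981 and 942 reads in clfswn against 93 and 65 in WT (log2 4.76, SD 0.81, edgeR adjusted p = 2.6e-20). Towards the 3′ end (13030069 to 13030475) a second region held 418 and 133 reads against 37 and 47 (log2 2.82, SD 1.41, adjusted p = 3.1e-10). The region at the gene start (13025934 to 13027046) held 579 and 619 reads against 728 and 777 and was not called (92.6% of WT, edgeR adjusted p = 0.34). Excess reads thus lay in the later part of the gene and differed between the clfswn libraries, with no H3K27me3 region of either clfswn table inside the gene. CKA1, the catalytic subunit of casein kinase 2, was the next, with 447 and 415 reads against 74 and 95 over exons and introns (chromosome 5, 26881124 to 26882262, log2 2.57). Within CKA1 the replicate 2 H3K27me3 table listed a region of its own (26882917 to 26883255) with 159 reads in clfswn against 9 in WT, and the replicate 1 table listed none. The later DRIP2 regions and the CKA1 region were called in clfswn alone in both tables, and so entered the comparison through their clfswn reads. Neither gene overlapped WT H3K27me3, and the source of these reads was not tested.

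The other highest regions all lay in WT H3K27me3. Those of STM, STK, MYB23, OLEO2 and HB-3 were called in clfswn alone in both tables, and being called depends on the same reads. STM, the KNOX homeobox factor that maintains the shoot apical meristem, had 404 and 421 reads in clfswn against 110 and 72 in WT over its first part (chromosome 1, 23060548 to 23061762), or 529% of WT (edgeR adjusted p = 1.8e-13). STK, an ovule identity MADS-box factor, had 276 and 222 against 63 and 79 (406%, adjusted p = 1.8e-10). TT16, a MADS-box factor of the seed coat, had 227 and 277 against 52 and 96 (401%, adjusted p = 1.7e-10). MYB23, a trichome factor, had 248 and 315 against 75 and 96 (383%). LSH1, an ALOG-domain protein, had 656 and 552 against 189 and 180 (380%), and OLEO2, an oil body oleosin, had 176 and 186 against 62 and 49 at its start (379%). HB-3 (AT2G33880), also known as WOX9, a homeobox factor of embryo and meristem, had 661 and 663 against 211 and 219 (358%, SD of log2 0.04). In each of these genes, the lower clfswn library exceeded the higher WT library. These regions were chosen by their ratio in the same libraries, so this separation is no separate evidence.

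**Figure D3:**
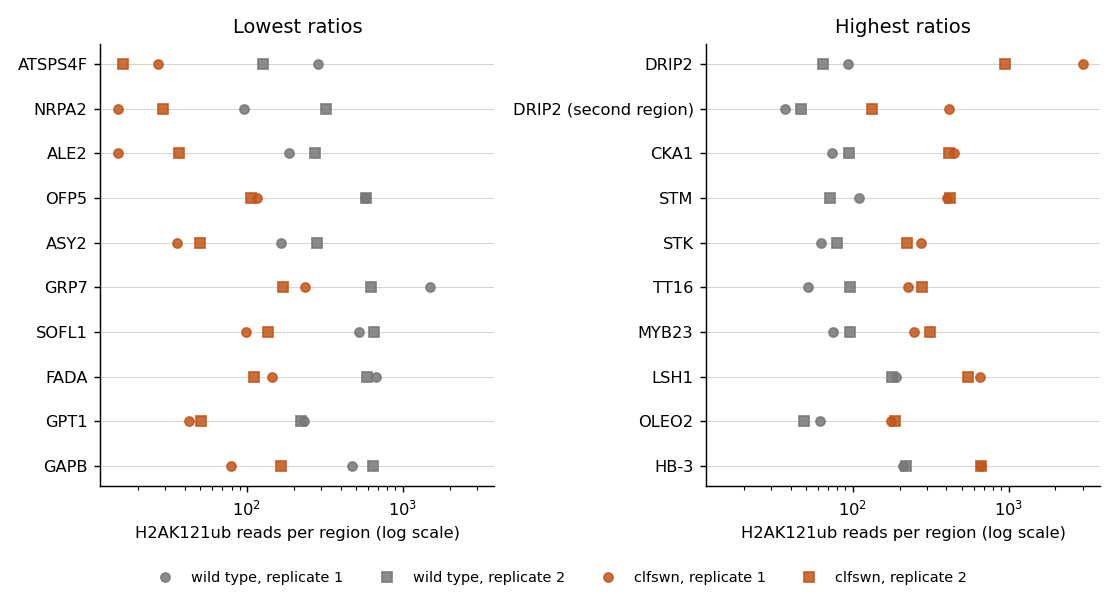
H2AK121ub reads per region in each of the 4 libraries (horizontal axis, log scale) for the 10 regions with the lowest and the 10 with the highest ratios among called regions with at least 100 reads on average and a RefSeq gene symbol. WT and clfswn libraries do not overlap in any row, from ATSPS4F (27 and 16 against 288 and 128 reads) to DRIP2 (2981 and 942 against 93 and 65). Rows were chosen by ratio in the same libraries, so this separation is no separate evidence.

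The 10 lowest regions by the naming rule, which takes genes with a RefSeq symbol, had no WT H3K27me3 and lay in gene bodies. Genes without such a symbol stand outside this ranking, among them SAUR60, a small auxin-induced gene known by a synonym, at 17.9% of WT over its gene start. ATSPS4F, a sucrose phosphate synthase, had 27 and 16 reads in clfswn against 288 and 128 in WT (chromosome 4, 6314796 to 6315735, 12.2% of WT, edgeR adjusted p = 6.2e-12). NRPA2, the second-largest subunit of RNA polymerase I, had 15 and 29 against 96 and 321 near its 3′ part (12.6%). ALE2, a receptor-like kinase of epidermis formation, had 15 and 37 against 186 and 273 (13.1%). Of these 10 regions, all but that of GRP7 were called in WT alone in both tables, and GRP7 was so called in replicate 2. Being called depends on the same reads, so these losses are no separate evidence. With 15 to 37 reads in clfswn at ATSPS4F, NRPA2 and ALE2, the size of their losses is less precise than in deeper regions.

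The other regions of these 10 fell to between 22.3% and 25.0% of WT. OFP5, an ovate family repressor, had 116 and 106 reads against 577 and 583 (22.3%, SD of log2 0.11, edgeR adjusted p = 5.5e-14), although the same 909 bp lie inside AT4G18840, a pentatricopeptide repeat gene on the other strand, and ChIP reads cannot be told apart by gene. GRP7, a glycine-rich RNA-binding protein of the circadian system, had 236 and 170 against 1506 and 624 (23.2%). Its WT reads themselves differed, over limits that also differed between replicates (9264978 to 9266478 and 9265306 to 9266409). FADA, a plastid fatty acid desaturase, had 145 and 111 against 674 and 591 (23.5%). GPT1, a plastid glucose 6-phosphate translocator, had 43 and 51 against 233 and 223 (24.0%), and GAPB, a subunit of chloroplast glyceraldehyde 3-phosphate dehydrogenase, had 79 and 166 against 473 and 647 (25.0%). ASY2, a relative of a meiotic chromosome axis protein, had 36 and 50 against 166 and 282 (22.5%). SOFL1, which acts in the cytokinin pathway, had 99 and 137 against 522 and 652 (23.3%), in a stretch shared with the noncoding gene AT1G26208.

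Kept regions included some of the most densely marked genes. AGO3, an argonaute protein, held 2387 and 2400 reads in clfswn against 2864 and 3468 in WT (88.3%, edgeR adjusted p = 0.059). PDLP6, a plasmodesmata-located protein, held 1455 and 1513 against 1714 and 1869 (96.4%), and PYL2, an abscisic acid receptor, held 1420 and 1471 against 1692 and 1781 (96.8%). DREB1A, a cold response factor, held 1445 and 1472 against 1607 and 1598 (106%), and ZIP5, a zinc transporter family member, held 1254 and 1207 against 1346 and 1439 (103%). CYP94B3, which hydroxylates jasmonoyl-isoleucine, stood at 93.9%. AGO3, PDLP6, PYL2, ZIP5 and CYP94B3 carried WT H3K27me3 and DREB1A did not. MAPKKK13 (82.3%, adjusted p = 0.0037), GA3OX2 (84.2%, adjusted p = 0.014), HAI2 (80.4%, adjusted p = 0.001) and RIC7 (86.7%, adjusted p = 0.031) passed the edgeR test but not the 80% limit, so kept does not mean unchanged.

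For gene groups, each gene was represented by its region with the most reads, which gave 19215 genes, 16.9% of them reduced and 22.9% increased, with a median fitted log2 ratio of 0.05. Of 56 gene lists, 40 had a median above that of all genes. No test was made between a list and other genes.

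**Figure D4:**
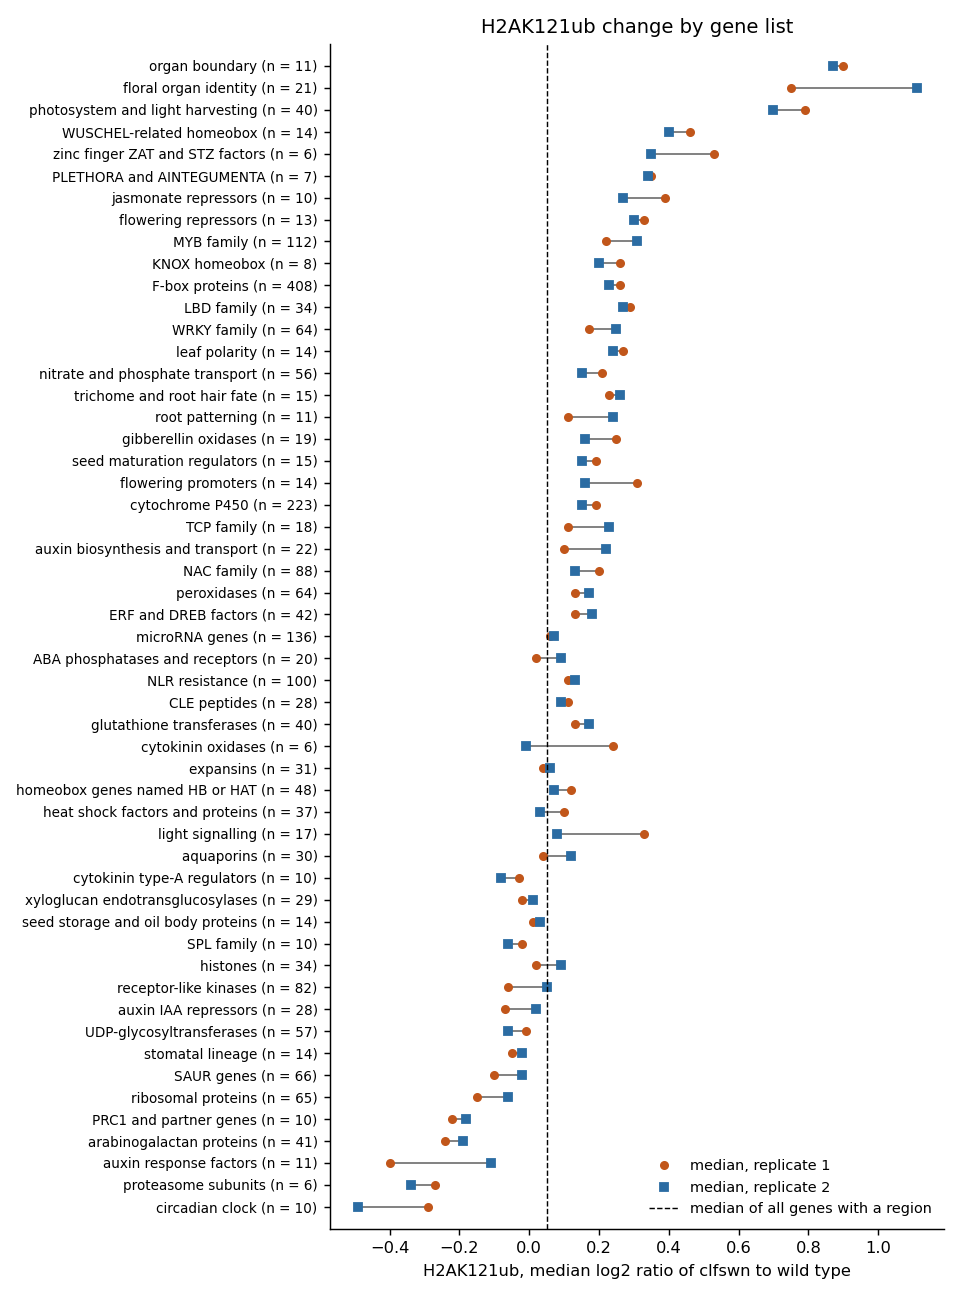
Median log2 ratio of clfswn to WT in each replicate pair (horizontal axis) for gene lists (rows, n is the number of members with a region). The dashed line is the median of all genes with a region, 0.05, and organ boundary, floral organ identity and photosystem genes lie farthest to its right, while circadian clock genes, with a median of −0.34, lie to its left.

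Floral organ identity genes gained H2AK121ub, with 16 of 21 increased, 3 reduced and a median of 0.88, and 19 of the 21 carried WT H3K27me3. AG, the carpel and stamen identity factor, had 123 and 116 reads in clfswn against 52 and 37 in WT (313%, edgeR adjusted p = 4.4e-07). SUP, a zinc finger factor that bounds the stamens, had 268 and 192 against 96 and 87 (290%). AP1, of sepal and petal identity, had 106 and 192 against 45 and 86 (265%), and SEP3, a MADS-box cofactor, had 148 and 148 against 73 and 63 (253%). The AG, SUP and AP1 regions were called in clfswn alone in both tables. SHP1 and SHP2, fruit valve margin factors, reached 243% and 198%. The petal and stamen factor AP3 rose to 175%, while its partner PI fell to 70.7% (98 and 123 against 181 and 182, edgeR adjusted p = 0.013). SPT and AP2, which act in carpels and in outer floral organs, carried no H3K27me3 and fell to 54.7% and 56.3%. KNU, a repressor of WUS, stood at 100% with 2090 and 2086 against 2314 and 2538 reads. Without the replicate block 7 genes of the list stayed increased and 2 reduced.

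Genes of organ separation followed the same direction, with 8 of 11 increased, 1 reduced and a median of 0.89. AS2, a LOB-domain factor of leaf polarity, had 589 and 570 reads against 282 and 271 (244%, SD of log2 0.01, edgeR adjusted p = 1e-10). LAS, a GRAS factor of axillary meristems, had 1188 and 1232 against 646 and 680 (212%). The CUC genes, NAC factors of the boundary, diverged. CUC2 had 797 and 786 reads against 494 and 502 (185%) and CUC3 had 963 and 928 against 506 and 501 (218%), whereas CUC1 had 1592 and 1533 against 2708 and 2698 (67.2%, edgeR adjusted p = 6.4e-07). All 3 carried WT H3K27me3, and the clfswn and WT libraries of each gene did not overlap. Both the floral and the boundary lists kept more increased than reduced members with the centre raised or lowered by 0.2.

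Meristem and founder cell homeobox genes gave mixed results. In the WUSCHEL-related family 8 of 14 were increased and 0 reduced, with a median of 0.43, or 3 and 0 without the replicate block. WUS, which maintains the stem cell niche of the shoot, had 754 and 845 reads against 583 and 611 (156%, edgeR adjusted p = 2.6e-06), WOX11, a root founder factor, rose to 266%, and the root niche factor WOX5 stood at 110% and was not called. Of 8 KNOX genes 4 were increased and 2 reduced, or 1 and 0 without the block. Beside STM, KNAT1 had 263 and 237 against 105 and 191 (200%), and KNAT6 had 175 and 182 against 305 and 363 (62.3%).

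The PLETHORA and AINTEGUMENTA genes, AP2-type factors of meristem and embryo, all carried WT H3K27me3 and all 7 were called, 5 increased and 2 reduced. BBM, an inducer of embryo fate, had 794 and 582 reads against 450 and 300 (214%, edgeR adjusted p = 8.2e-10), and PLT7 had 894 and 973 against 611 and 769 (158%). PLT5 fell to 36.8%, with 349 and 351 reads against 1099 and 1115 (SD of log2 0.01, adjusted p = 7e-13), in a region over the gene start within an H3K27me3 domain of 7400 bp. PLT3 fell to 63.1%, with 671 and 739 against 1244 and 1356. With the most reduced region of each gene in place of the region with the most reads, the list differed from all genes by −0.16 instead of lying above them, so its direction depends on that choice.

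Of 14 leaf polarity genes 7 were increased and 3 reduced, or 2 and 1 without the replicate block. With the most reduced region of each gene, the list's median lay at −0.09 relative to all genes instead of above them. KANADI and YABBY factors of the lower leaf side included gains, with YAB3 at 236% (219 and 157 reads against 107 and 78), FIL at 198% (377 and 415 against 229 and 236) and KAN3 at 167%, while YAB2 and YAB5 were not called. None of the HD-ZIP III factors of the upper side named here was increased. REV fell to 47.7% (198 and 156 against 429 and 431, edgeR adjusted p = 7.8e-08), PHB to 71.6% and CNA was also reduced, and PHV at 94.9% and HB-8 at 107% were not called. REV and PHB carried no WT H3K27me3.

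Regulators of flowering time changed in both directions. Among 13 repressors 6 were increased and 4 reduced, or 2 and 1 without the replicate block. SVP, a MADS-box repressor, had 576 and 461 reads against 264 and 154 (292%, edgeR adjusted p = 2.9e-11), and the RAV-type repressors TEM2 (1755 and 1782 against 1002 and 702, 244%) and TEM1 (1713 and 2013 against 1535 and 1244, 156%) also rose. FLC, the vernalization-controlled repressor, fell to 60.7%, with 252 and 225 reads against 458 and 455 at the gene start (adjusted p = 9.7e-06), where 829 bp of the region lie in an antisense noncoding gene. Among 14 promoters of flowering 6 were increased and 1 reduced, or 1 and 0 without the block. The integrator FT had 172 and 185 reads against 168 and 204 (112%, edgeR adjusted p = 0.39) and SOC1 had 545 and 582 against 741 and 745 (88.2%, adjusted p = 0.12), and neither was called. AGL24 rose to 285% (297 and 228 against 98 and 115), AGL19 to 212%, and LFY, which confers floral fate, to 126%. The AGL19 region was called in clfswn alone in both tables. CO, the photoperiod factor, fell to 66.9% (221 and 157 against 335 and 318).

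Seed programmes also held both directions. Of 15 regulators of embryogenesis and seed maturation 6 were increased and 4 reduced, with a median of 0.18. The counts were 9 and 3 with the centre raised by 0.2, 3 and 6 (median −0.02) with the centre lowered, and 1 and 1 without the replicate block. LEC2, a B3 factor of embryo fate, had 422 and 384 reads against 223 and 197 (223%, edgeR adjusted p = 5.5e-09) within an H3K27me3 domain of 17775 bp. FUS3, a related B3 factor, had 554 and 673 against 468 and 462 (153%), and LEC1, a NF-Y subunit, had 895 and 907 against 809 and 879 (124%, adjusted p = 0.0049). ABI3, the B3 factor of abscisic acid responses, had 478 and 965 against 1158 and 1649 and fell to 57.9% (adjusted p = 2.1e-07). Its limits differed between replicates (8998924 to 9001238 and 8997565 to 9001212), so its reads cannot be compared between them. The levels in the pairs were 47.9% and 68.4%. ABI5, a bZIP factor, fell to 64.7%. Of 14 storage and oil body genes 4 were increased, 1 was reduced and the median was 0.01. EM6 and EM1, late embryogenesis proteins, rose to 153% and 151%, and OLEO3 fell to 65.6%, with 553 and 585 reads against 972 and 1046.

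A gain without WT H3K27me3 was found in nuclear genes of photosynthesis. Of 40 photosystem and light-harvesting genes 29 were increased and 2 reduced, with a median of 0.74, and 1 of the 40 carried WT H3K27me3. CAB1, a light-harvesting chlorophyll protein, had 414 and 371 reads in clfswn against 146 and 119 in WT (345%, edgeR adjusted p = 6.2e-12). LHCA4, an antenna protein of photosystem I, had 118 and 102 against 49 and 49 (260%), and PSAD-1, a photosystem I subunit, had 644 and 645 against 345 and 368 (210%). PSBY, of photosystem II, had 329 and 319 against 149 and 180 (229%). LHB1B2 reached 314%, in a region shared with a noncoding gene on the other strand. PSBS, which dissipates excess light energy, fell to 68.0% (553 and 501 against 873 and 929), as did LHCB4.3 to 70.3%, the member with H3K27me3. Without the replicate block 12 members were increased and 1 reduced. Unique alignment leaves out reads shared by near-identical copies, so values of the CAB and LHCB2 copies are uncertain. The CAB1 region lies 1120 bp from the NRPA2 region that fell to 12.6%.

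**Figure D5:**
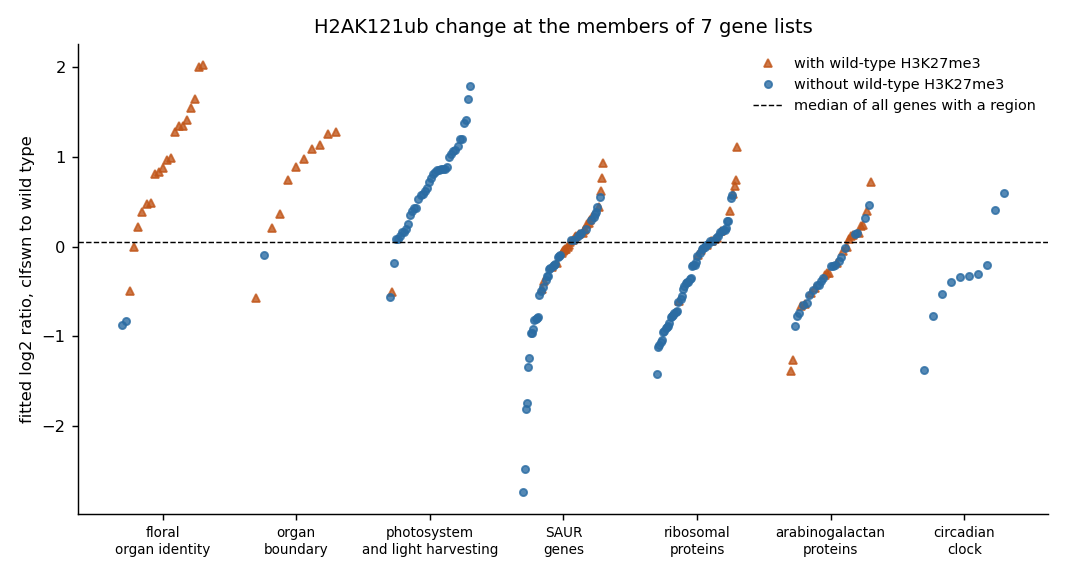
Fitted log2 ratio of clfswn to WT (vertical axis) for every member with a region in 7 gene lists (horizontal axis), marked by WT H3K27me3, with the median of all genes, 0.05, as a dashed line. Floral organ identity and boundary genes with H3K27me3 and photosystem genes without it lie mostly above the line, and clock genes, none of which has H3K27me3, mostly lie below.

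Clock genes carried no WT H3K27me3 and more were reduced than increased, 5 against 2 of 10, with a median of −0.34. CCA1 and LHY, the MYB-type morning factors, fell to 69.4% (118 and 152 reads against 177 and 280, edgeR adjusted p = 0.0056) and 75.7% (359 and 387 against 487 and 668). FKF1, a blue light receptor and F-box protein, fell to 58.8% (99 and 99 against 232 and 163). LUX, an evening complex subunit, read 38.5% (59 and 63 against 190 and 179), but its whole region lies within AT3G46650, a glycosyltransferase gene, and the source cannot be told apart. PRR9, a pseudo-response regulator, rose to 133% and CHE, a TCP factor that binds the CCA1 promoter, to 152%. PRR5 had 155 and 119 reads against 363 and 84 and changed direction between the pairs. Counts became 2 and 2 with the centre raised by 0.2, while the median stayed below 0 at −0.14. Without the replicate block 1 clock gene was reduced and 0 were increased, with 2 reduced and 1 increased by DESeq2.

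Among 17 light signalling genes 8 were increased and 5 reduced, or 5 and 5 with the centre lowered by 0.2. Of the phytochrome-interacting factors, PIF5 rose to 221% (419 and 435 reads against 243 and 207, edgeR adjusted p = 7.2e-09), PIF1 to 187% (864 and 849 against 516 and 548), PIF4 to 159% and PIF3 to 147%, and PIF7 at 101% was not called. HFR1, which sequesters PIF proteins, rose to 203%. HY5 and HYH, bZIP factors of seedling greening, fell to 69.4% (167 and 282 against 278 and 476) and 77.2%. PHYB, the red light receptor, fell to 69.3% upstream of the gene and PHYA at 87.7% was not called. The blue light receptor PHOT1 rose to 168% (1082 and 1125 against 883 and 657), while its relative PHOT2 fell to 56.4% (297 and 266 against 563 and 597). In the fit without the block 2 genes of the list were increased and 1 reduced.

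Arabinogalactan, ribosomal protein and SAUR genes held more reduced than increased members. Other lists of growth and the cell surface went both ways. Expansins (4 reduced, 6 increased) and aquaporins (2 reduced, 8 increased) held more increased members. Xyloglucan endotransglucosylases (7 reduced, 4 increased) and receptor-like kinases (15 reduced, 14 increased) held more reduced members. Among all genes 16.9% were reduced and 22.9% increased. With the centre lowered by 0.2, expansins had 12 reduced and 2 increased members and aquaporins 6 and 2. With the centre raised by 0.2, xyloglucan endotransglucosylases had 4 and 8 and receptor-like kinases 7 and 34. The directions of these 4 lists thus depend on the centre. Of 41 arabinogalactan protein genes, which encode cell surface proteoglycans, 16 were reduced and 3 increased (median −0.22). AGP9 had 280 and 298 reads in clfswn against 872 and 893 in WT (38.1%, SD of log2 0.04, edgeR adjusted p = 6.2e-12), and FLA17 had 364 and 349 against 756 and 664 (58.5%). AGP10 fell to 41.5%, in a region that partly covers a neighbouring gene. Under the centre raised by 0.2 the list had 9 reduced and 12 increased members. Of 65 ribosomal protein genes 25 were reduced and 7 increased (median −0.10, or 0.10 with the centre raised). Ribosomal protein genes without WT H3K27me3 had a median of −0.36, and the 14 with it a median of 0.09. Of 66 SAUR genes, small genes induced by auxin, 18 were reduced and 10 increased, with a median of −0.05 that became 0.15 with the centre raised. SAUR60 had 57 and 58 reads against 407 and 344 (17.9%) and SAUR61 had 55 and 53 against 186 and 236 (29.9%), both in regions that also cover neighbouring genes. Without the replicate block, 8 arabinogalactan, 3 ribosomal and 6 SAUR genes were reduced and 0 increased.

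Among hormone genes, the auxin response factors and the type-A response regulators carried no WT H3K27me3 and held losses, with 0 increased in either list. Their medians were −0.22 and 0.03, against 0.05 for all genes, so the type-A list as a whole lay near all genes. Among all genes 16.9% were reduced. With the centre raised by 0.2, 3 auxin response factors were reduced and 1 increased, and 1 type-A regulator was reduced and 2 increased. Of 11 auxin response factor genes 4 were reduced, namely ARF8 at 54.8% (55 and 99 reads against 148 and 175, edgeR adjusted p = 0.00033), ARF10 at 65.2%, ARF6 at 67.8% and ARF3 at 72.5%. Of 10 type-A response regulators of cytokinin signalling 4 were reduced, led by ARR16 at 47.2% (132 and 146 against 355 and 331, adjusted p = 2.1e-07). Of the 11 auxin response factors 0 were reduced without the replicate block and 2 by DESeq2, and of the response regulators 1 and 2. Of 10 jasmonate repressor genes 4 were increased and 0 reduced, but 0 were increased without the block or by DESeq2. Among them was JAZ4 at 176% (155 and 153 against 96 and 108), in a region called in clfswn alone in both tables. In gibberellin metabolism, GA3OX1, which makes active gibberellin, fell to 56.7% (305 and 347 against 569 and 778) and GA2OX7, which degrades gibberellin precursors, rose to 203% (136 and 171 against 79 and 97). In abscisic acid signalling the phosphatase gene HAI3 rose to 190% (1092 and 1158 against 712 and 665), whereas the receptor gene PYL4 fell to 59.0% (789 and 702 against 1678 and 1275).

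In large transcription factor families more genes were increased than reduced, as among all genes, where the shares were 22.9% and 16.9%. Of 112 MYB genes 51 were increased and 10 reduced (median 0.28), of 88 NAC genes 33 and 8 (median 0.15), and of 64 WRKY genes 26 and 6 (median 0.23). With the centre lowered by 0.2 the counts were 31 and 20 in MYB, 16 and 14 in NAC (median −0.05) and 14 and 13 in WRKY genes. Without the replicate block 7 MYB, 5 NAC and 6 WRKY genes were increased, and 1 of each family reduced. MYB52 reached 302% (334 and 310 reads against 134 and 114, edgeR adjusted p = 2.2e-10) and WRKY14 reached 239% (589 and 588 against 294 and 278), both within WT H3K27me3. The MYB52 region was called in clfswn alone in both tables, so it entered the comparison through its clfswn reads. Among LBD factors, LBD30, a regulator of xylem vessels, rose to 322% (549 and 605 against 189 and 229), and LBD21 fell to 35.5% (116 and 142 against 480 and 369). Stress factors without H3K27me3 were also affected. DREB2A, of drought and heat responses, fell to 27.2% (38 and 48 against 136 and 236, adjusted p = 8.7e-09), in a region called in WT alone in both tables. ERF-1 rose to 248% (709 and 839 against 311 and 417), and STZ, a zinc finger repressor, rose to 170% (751 and 964 against 519 and 654).

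Of 11 root patterning genes 4 were increased and 1 reduced, and of 15 trichome and root hair fate genes 6 and 0. Among all genes 22.9% were increased and 16.9% reduced. Without the replicate block the counts were 1 and 0 in root patterning and 3 and 0 in trichome and root hair fate. With the centre lowered by 0.2 they were 4 and 2 in both lists. RHD6, RSL2 and RSL4, bHLH factors of root hairs, rose to 218%, 171% and 153%, with RHD6 at 450 and 304 reads in clfswn against 265 and 143 in WT (edgeR adjusted p = 2.7e-08). FEZ, a NAC factor of the root cap, rose to 164% with 644 and 643 reads against 454 and 456, and JKD, of the ground tissue, to 140%. LHW, a bHLH factor of the vascular cells, fell to 56.8% (104 and 90 against 176 and 223). In the stomatal lineage 3 of 14 genes were increased and 3 reduced, or 0 and 0 without the block. SCRM, a bHLH partner in stomatal fate, fell to 64.1% and STOMAGEN, a peptide that promotes stomata, to 69.7%, while the receptor gene TMM rose to 136%.

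Values in atbmi1abc and lhp1 come from comparisons that share the WT libraries, so they are set side by side without a test, for genes whose regions have the same limits in all 3 tables. ALE2 read −1.50 and −1.82 in atbmi1abc and 0.12 and −0.50 in lhp1, beside −3.32 and −2.64 in clfswn. OFP5 read −1.13 and −0.95 in atbmi1abc and 0.16 and 0.29 in lhp1, beside −2.08 and −2.23. PLT5 read −0.56 and −0.93 in atbmi1abc and 0.02 and 0.00 in lhp1, beside −1.44 and −1.44. Other regions reduced in clfswn did not read lower in atbmi1abc after rescaling. ASY2 read 0.46 and 0.98 in atbmi1abc and 0.13 and 0.24 in lhp1, beside −1.95 and −2.26. LHW read 0.53 and 0.15 in atbmi1abc and 0.47 and 0.33 in lhp1, beside −0.53 and −1.09. These genes are examples, and the share of reduced regions in either group was not counted. Positive rescaled ratios in photosystem genes without WT H3K27me3 were also read in the other mutants. CAB1 read 1.64 and 1.6 in atbmi1abc and 0.95 and 0.78 in lhp1, beside 1.72 and 1.85 in clfswn. PSAE-1 read 0.52 and 0.61 in atbmi1abc and 0.58 and 0.7 in lhp1, beside 1.38 and 1.43 in clfswn. Other photosystem genes are not set side by side here. Each comparison was rescaled on its own common regions, which removes a change shared by all regions. The paper reports a global loss of H2AK121ub in atbmi1a/b/c, also by western blot. The atbmi1abc libraries held 1706839 and 2910165 reads in their own called regions, against 7151170 and 7490200 in WT. Positive ratios in atbmi1abc are thus relative to its other regions and need not be gains in the amount of the mark.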

How the data were processed

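Chromatin of 150 whole seedlings was immunoprecipitated and libraries were amplified by the authors, who aligned unique reads to TAIR10 with Bowtie, called regions per library with MACS2 against a common input, and deposited raw read counts per region with rescaled ratios and p-values of their own comparison, which were not used (tool versions are not given in the sources used here). Ratios and tests were recomputed from the raw counts. Per pair, log2 ratios (pseudocount 1) were rescaled by robust regression (MASS 7.3.60.0.1) on common regions within 20% of depth-scaled WT. edgeR 4.0.16 in R 4.3.3 fitted the 4 libraries with the replicate as a block and Benjamini-Hochberg adjustment over 24038 regions, tested on simulated data. The pairing comes from the labels, which name each WT library as the control of a clfswn replicate, and both were counted in the same limits.

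H3K27me3 regions were those called in both WT controls of clfswn. Genes and sequences come from RefSeq TAIR10.1, whose chromosome lengths fit all but 1 region end. The WT H2AK121ub values were identical in the tables of the 3 mutants (21987 and 22314 regions), hence 2 WT sets. Named genes were the 10 lowest and 10 highest called regions with a RefSeq symbol and at least 100 reads, the 10 densest kept regions, up to 4 called members per list, and all PRC1 and PRC2 genes. Further list members were named after their values were seen. Members and lists were chosen with earlier results of these data known, and lists were trimmed by product name. Reads are PCR-amplified without molecular identifiers. A gene family among the lists is not reported here.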

Additional observations from a re-analysis of the deposited data

How the results depend on the processing

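The numbers of reduced and increased regions depended on the fit, and the median on the centre of the ratios. Reduced and increased regions numbered 1474 and 1178 with DESeq2 (replicate block kept), 506 and 478 with no replicate block, and 1942 and 2437 with limits of 67% and 150%. With the centre raised by 0.2 they numbered 1936 and 9979, and with the centre lowered by 0.2 they numbered 6879 and 2533, both settings chosen after seeing the data. Leaving out 1 library at a time, without the block and with the lone library of a genotype assumed to vary like the other genotype, gave 0 to 180 reduced and 0 to 143 increased regions. The fits that called 0 regions by edgeR had 3673 and 3809 regions at an unadjusted p under 0.05 and lowest adjusted p of 0.15 and 0.0892. The median log2 ratio was 0.01 with TMM, 0.04 with total reads, 0.0 over regions called in WT in both replicates, 0.26 and −0.14 with the centre raised and lowered, and 0.05 to 0.08 in the pairs alone. No region was called in the opposite direction in any setting run on the same regions. The difference between regions with and without H3K27me3 stayed between 0.24 and 0.28 in every setting run. TMM and total reads shift both classes of a pair alike, so these settings could hardly move the difference. Settings that could move it were the WT H3K27me3 controls of atbmi1abc (0.24), an overlap of at least 50% (0.28) and regions called in WT in both replicates (0.26). Within classes of read density it ran from 0.1 to 0.49, and within classes of region length from 0.16 to 0.38. Of 221 called regions named, 219 kept their call with TMM and with total reads and 99 without the block. With the most reduced region per gene, the difference of a list's median from all genes turned to −0.33 in flowering repressors, 0.02 in seed storage genes, −0.16 in PLETHORA and AINTEGUMENTA genes, −0.09 in leaf polarity genes, −0.02 in ERF and DREB factors and −0.07 in expansins. Fitted ratios turned in JAZ5 (−0.85 to 1.58), XTH4 (−1.68 to 0.26) and UGT84B2 (−0.17 to 1.81) when 1 library was left out. The cause was not tested in any of these cases. Total mapped reads were not used here, so a change shared by all regions is outside what these counts show, and 2 pairs limit every comparison of medians.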

Other observations

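Metabolic and signalling families not described in the report are given beside the shares of all genes, 22.9% increased and 16.9% reduced, and without the replicate block far fewer of their members were called, such as 14 increased and 3 reduced F-box genes. Of 408 F-box genes, which encode substrate adaptors of ubiquitin ligases, 145 were increased and 30 reduced, with a median fitted log2 ratio of 0.26. AT5G10340, an F-box gene without WT H3K27me3, had 203 and 201 reads in clfswn against 1005 and 853 in WT (25.3%, edgeR adjusted p = 1.7e-14), and AT3G47030, with H3K27me3, had 298 and 453 against 140 and 214 (247%). Of 223 cytochrome P450 genes 71 were increased and 31 reduced (median 0.17), and CYP75B1, the flavonoid 3′-hydroxylase, rose to 222% (477 and 614 against 264 and 307). Of 57 UDP-glycosyltransferase genes 12 were increased and 15 reduced (median −0.02), and UGT73C1 fell to 41.5% (100 and 135 against 355 and 303). Of 82 receptor-like kinase genes 14 were increased and 15 reduced. AT4G36180, a leucine-rich repeat kinase, fell to 42.5% (545 and 453 against 1425 and 1300), and AT2G21480 rose to 261% (379 and 203 against 199 and 69). Of 100 NLR resistance genes 25 were increased and 12 reduced, with AT5G46490 at 30.6% (191 and 159 against 712 and 618).

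Cell wall genes were mostly not called, with 6 of 31 expansins increased and 4 reduced, and 4 of 29 xyloglucan endotransglucosylases increased and 7 reduced. EXPA8, a cell wall loosening protein, had 1096 and 1148 reads against 2057 and 1977 (64.7%, edgeR adjusted p = 3.5e-07), and XTH6, a remodelling enzyme, had 852 and 782 against 1635 and 1767 (55.8%). Of 136 microRNA genes with a region 31 were increased and 25 reduced, close to the shares of all genes. Of 10 genes of the SPL family of flowering and phase change factors 3 were reduced and 2 increased, and SPL8 rose to 142% (1464 and 1649 against 1167 and 1386).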
